A study of Mus musculus with 8 samples.

Results

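Sites of open chromatin that were listed in the hair germ and in both populations of transient amplifying cells, but not in the bulge, were examined in the mouse hair follicle. They were chosen by the presence and absence of peaks: overlapping peaks of 4 deposited lists were merged into sites wherever they shared at least 1 bp, and a site was kept when it held a hair germ, a basal and a suprabasal peak and no bulge peak. This rule kept 2053 of 114956 sites, or 1.79%. Presence in 3 lists and absence from the bulge list are therefore how the sites were selected and are not results.

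Chromatin was profiled by ATAC-seq, in which a transposase cuts and tags accessible DNA, in cells sorted from mouse back skin, with 2 samples per population and animals of mixed sex. Hair germ cells were sorted as GFP+/CD34- and bulge stem cells as GFP+/CD34+, both Itga6+/Itgb1+, from Lgr5-eGFP-ires-CreER mice at postnatal day 55, when the follicles rested in telogen. Basal transient amplifying cells (TACs) were GFP-/CD34-/Itgb1high/Pcad+/SCA1- cells of Lgr5-eGFP-ires-CreER mice at postnatal day 30, when the follicles grew in anagen. Suprabasal TACs were GFPlow/Itga6-/CD34- cells of K14-H2BGFP mice at postnatal day 30. In these mice the GFP reports Lgr5 expression, or marks the nuclei of cells in which the keratin 14 promoter is or was active. Hair cycle stage and age coincide between the telogen and anagen populations, and mouse line and sort differ for the suprabasal TACs, so these cannot be told apart.

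In a resting follicle, stem cells sit in the bulge, and the hair germ is a small cluster of cells between the bulge and the dermal papilla. Hair germ cells are first to divide when WNT signalling rises and BMP signalling falls at the start of a new cycle, and their progeny form the matrix of TACs. Basal TACs touch the dermal papilla, and suprabasal TACs are committed to the inner root sheath and the hair shaft. A site of the kind described here is one that the caller listed from the hair germ onward.

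Sequences are shown for promoters that such a site covered at least in part, because here the site can be read against a known start of transcription. Each runs from 250 bases before to 50 bases after a RefSeq start (GRCm38.p6, the build mm10), 5′ to 3′ on the gene's strand, and capitals mark every match to the 12 motifs searched below. Wnt3 and Krt18 were shown because they belong to the gene lists used here, and the other 3 were chosen after their values were seen.
Wnt3, a secreted WNT ligand, chr11:103773925-103774224, plus strand: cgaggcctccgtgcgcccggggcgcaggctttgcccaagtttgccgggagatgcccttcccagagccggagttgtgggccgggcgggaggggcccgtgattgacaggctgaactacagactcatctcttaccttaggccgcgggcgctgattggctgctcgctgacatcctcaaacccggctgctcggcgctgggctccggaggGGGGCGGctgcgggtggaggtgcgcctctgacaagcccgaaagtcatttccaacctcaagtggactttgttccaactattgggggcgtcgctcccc
Krt18, a simple-epithelium keratin of Merkel cells, chr15:102027966-102028265, plus strand: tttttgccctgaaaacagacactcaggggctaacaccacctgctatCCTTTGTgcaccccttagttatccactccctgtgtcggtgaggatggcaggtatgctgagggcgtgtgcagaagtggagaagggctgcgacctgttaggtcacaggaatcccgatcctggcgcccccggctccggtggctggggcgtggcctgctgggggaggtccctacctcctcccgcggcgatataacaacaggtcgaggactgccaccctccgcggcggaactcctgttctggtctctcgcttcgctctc
Krtap3-3, a keratin-associated protein of the hair shaft, chr11:99550814-99551113, minus strand: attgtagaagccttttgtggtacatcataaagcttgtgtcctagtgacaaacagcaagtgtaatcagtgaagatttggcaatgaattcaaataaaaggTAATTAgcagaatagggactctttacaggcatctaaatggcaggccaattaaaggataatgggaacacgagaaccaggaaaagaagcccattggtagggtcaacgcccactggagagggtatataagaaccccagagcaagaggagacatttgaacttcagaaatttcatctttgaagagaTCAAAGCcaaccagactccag
Bmp8b, a BMP family ligand, chr4:123104911-123105210, plus strand: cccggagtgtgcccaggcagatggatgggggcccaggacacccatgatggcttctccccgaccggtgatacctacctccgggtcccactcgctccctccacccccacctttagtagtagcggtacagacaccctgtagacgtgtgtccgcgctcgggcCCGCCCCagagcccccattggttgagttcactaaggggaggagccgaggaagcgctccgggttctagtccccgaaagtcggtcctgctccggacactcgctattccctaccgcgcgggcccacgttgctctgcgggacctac
Fgfbp1, a secreted carrier of fibroblast growth factors, chr5:43981750-43982049, minus strand: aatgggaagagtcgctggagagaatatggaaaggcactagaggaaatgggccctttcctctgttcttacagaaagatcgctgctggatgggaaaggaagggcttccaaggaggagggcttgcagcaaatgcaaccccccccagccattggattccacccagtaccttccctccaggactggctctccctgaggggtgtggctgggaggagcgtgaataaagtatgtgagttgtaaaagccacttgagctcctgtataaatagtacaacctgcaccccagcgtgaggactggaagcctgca

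The Wnt3 promoter lay whole inside its site, and 237 of its 300 bases were also inside the hair germ peak. Its single match was to the SP/KLF motif, 46 bases before the start. Bmp8b also held 1 SP/KLF match, 92 bases before the start, and all 300 bases were inside the hair germ peak. At Fgfbp1 the hair germ peak likewise covered all 300 bases, which held no match to the motifs searched. The Krt18 site covered 152 of the 300 bases, and the TCF/LEF match 204 bases before the start lay outside it. The Krtap3-3 promoter was whole inside its site through the suprabasal peak. The hair germ and basal peaks of that site covered none of the 300 bases. This promoter held a homeobox match 152 bases before the start and a TCF/LEF match 30 bases after it.

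Peaks of these sites were weak in the hair germ and of middling strength in both TAC lists. The hair germ list recorded a median of 12 fragments at the peak summit, with a fold enrichment of 4.86 over the local background and a −log10 q-value of 5.44. In basal TACs the medians were 50 fragments, 6.82-fold and a −log10 q-value of 25.7, and in suprabasal TACs 49 fragments, 4.93-fold and 17.99. The middle member stood at percentile 23.2 of its own list by fold in the hair germ, 51.5 in basal TACs and 52.0 in suprabasal TACs. All these scores are the authors' and describe the selected peaks. No test applies, because each list pools both samples of a population and has no replicate error.

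The 31420 sites listed in all 4 populations give a scale for each list. Depth-scaled summit coverage, in fragments per 1000000 fragments of the library, was 1.09 at the bulge-absent sites against 4.25 at the common sites in the hair germ, a ratio of 0.255. The ratio was 0.521 in basal TACs (1.62 against 3.11) and 0.544 in suprabasal TACs (1.02 against 1.88). Hair germ peaks were also narrow, with a median length of 385 bp, while the basal and suprabasal peaks of the same sites were 695 and 692 bp long. Of the 2053 sites, 53.7% had their highest depth-scaled coverage in basal TACs, 27.2% in the hair germ and 19.1% in suprabasal TACs. The common sites were ranked over the same 3 lists, leaving out their bulge peaks. Of them 21.97% were highest in basal TACs, 73.2% in the hair germ and 4.86% in suprabasal TACs.

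**Figure D1:**
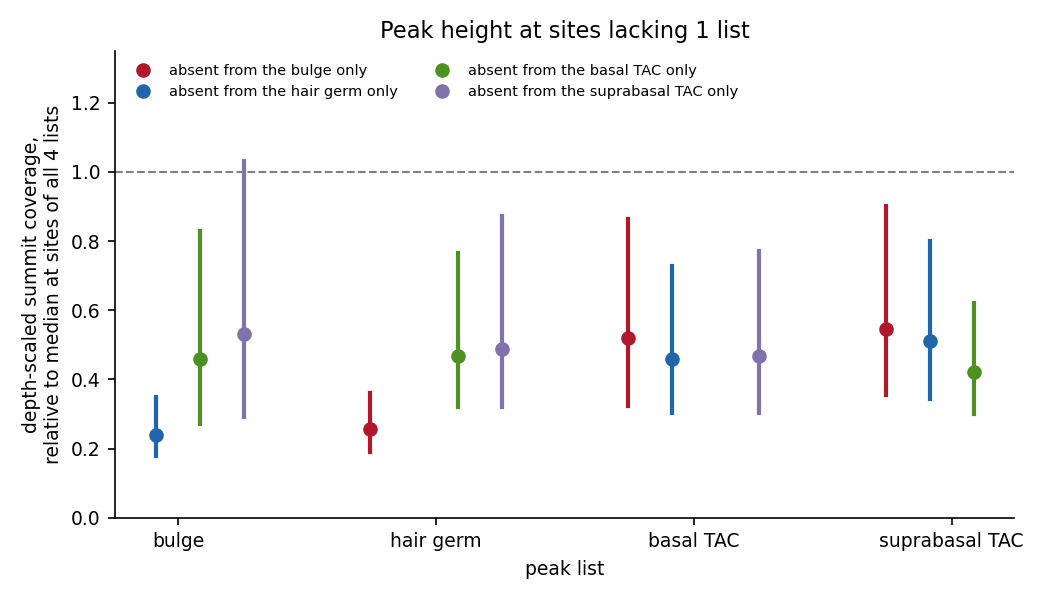
Depth-scaled summit coverage of peaks at sites lacking 1 list, divided by the median of the same list at sites of all 4 lists, with the 4 peak lists on the horizontal axis. Points are medians and bars run between the quartiles. The sites absent from the bulge only sit at 0.255 in the hair germ, 0.521 in basal TACs and 0.544 in suprabasal TACs, and the sites absent from the hair germ only sit at 0.240 in the bulge.

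The mirror class had similarly low peaks in its remaining telogen list. At the 2406 sites absent from the hair germ only, bulge peaks had a median of 24 fragments, a fold enrichment of 4.59 and a percentile of 22.6 within the bulge list, and their coverage ratio to the common sites was 0.240. At the sites absent from the basal TACs only, hair germ peaks reached a ratio of 0.468, and at those absent from the suprabasal TACs only 0.489. So a site that both TAC lists held and 1 telogen list lacked had, by the medians, a low peak in the other telogen list, whichever that was. This is a statement about peaks above the caller's threshold and gives no value for the bulge at the sites.

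Individual sites spread widely around these medians. In the hair germ, coverage at the summit ran between 6 and 80 fragments and fold enrichment between 2.21 and 15.5. A −log10 q-value of 10 or more was reached in the hair germ at 406 sites (19.8%, 95% Wilson interval 18.1 to 21.6), in basal TACs at 1668 (81.2%) and in suprabasal TACs at 1459 (71.1%). It reached 10 in all 3 lists at 305 sites (14.9%, 13.4 to 16.5), and it was under 2 in the hair germ at 41. Sites were built from overlapping peaks, so some overlap between the lists was fixed by the rule. Exactly 1 peak of each list was held by 1976 sites. The strongest peaks of the 3 lists shared a base at 1975 sites, and at 1532 (74.6%) the 3 summits fell within 250 bp.

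Depth differed between the libraries and touches the count of these sites. The hair germ library held 11053351 fragments against 24065469 in the bulge, with 30824845 in basal and 47852893 in suprabasal TACs. At the common sites the median depth-scaled coverage was close, 4.25 in the hair germ and 4.16 in the bulge. Scaled by the ratio of fragments, 2.18, the hair germ coverage of the 2053 sites would be a median of 26.1 fragments in the bulge library, between 13.1 and 174. The lowest 5% of bulge peaks had up to 15 fragments at the summit, and 2021 of the 2053 sites (98.4%) reached that level after scaling. At the 10th percentile, 18 fragments, 1712 (83.4%) did, and at the bulge median, 55 fragments, 189 (9.21%). The first share was largely set by the caller, because 7 hair germ fragments already scaled to 15.2 and the lowest listed peak had 6. It therefore cannot decide whether the bulge absence holds at equal depth, and the share over all hair germ peaks was not computed. A count of 12 fragments has an exact 95% Poisson interval of 6.20 to 21.0, or 13.5 to 45.6 after scaling, which reaches below 15. This interval covers counting error only.

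**Figure D2:**
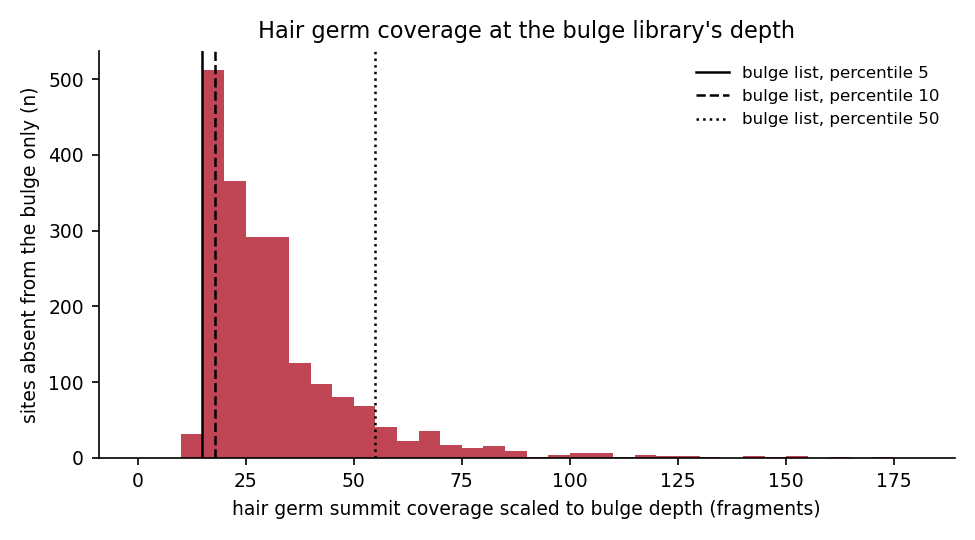
Histogram of hair germ summit coverage at the 2053 sites, scaled to the fragments of the bulge library (horizontal axis, fragments) against the number of sites. Vertical lines mark percentiles 5, 10 and 50 of summit coverage in the bulge list, at 15, 18 and 55 fragments. Most sites lie between the lines at 15 and 55 fragments.

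The counts behind the rule describe how the 4 lists overlap, and they are not independent of the selection. Of 14430 sites held by both TAC lists and not by the bulge, 2053 held a hair germ peak (14.2%, 95% Wilson interval 13.7 to 14.8). Where both TAC lists and the bulge held a peak, the hair germ did so at 31420 of 33826 (92.9%). Of 20154 sites that only 1 of the hair germ and bulge lists held, 6754 were in the hair germ list (33.5%). Of these 6754, 2053 were in both TAC lists (30.4%, 29.3 to 31.5), 1330 in basal TACs alone (19.7%), 670 in suprabasal TACs alone (9.92%) and 2701 in neither (40.0%). Of 47948 sites shared by hair germ and bulge, 65.5% were in both TAC lists.

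Most of the sites were over 1 kb from any bulge peak. The nearest one was a median of 8919 bp away, and 56 sites (2.73%) had a bulge peak within 500 bp, 146 (7.11%) within 1 kb and 1106 (53.9%) within 10 kb. Sites absent from the hair germ only were a median of 6318 bp from a hair germ peak. Those absent from the basal TACs only were 4305.5 bp from a basal peak, and those absent from the suprabasal TACs only 8697 bp from a suprabasal peak. Just inside the rule were a site near Barx1 with a bulge peak 11 bp away, 1 near Acsl1 at 28 bp and 1 near Cpsf4l at 58 bp. Just outside it were sites near Foxp2, Scrt2 and Nudt3, where overlaps of bulge peaks with peaks of the other lists summed to 40, 42 and 63 bp. The sum counts each overlapping pair of peaks, so a base can count more than once.

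**Figure D3:**
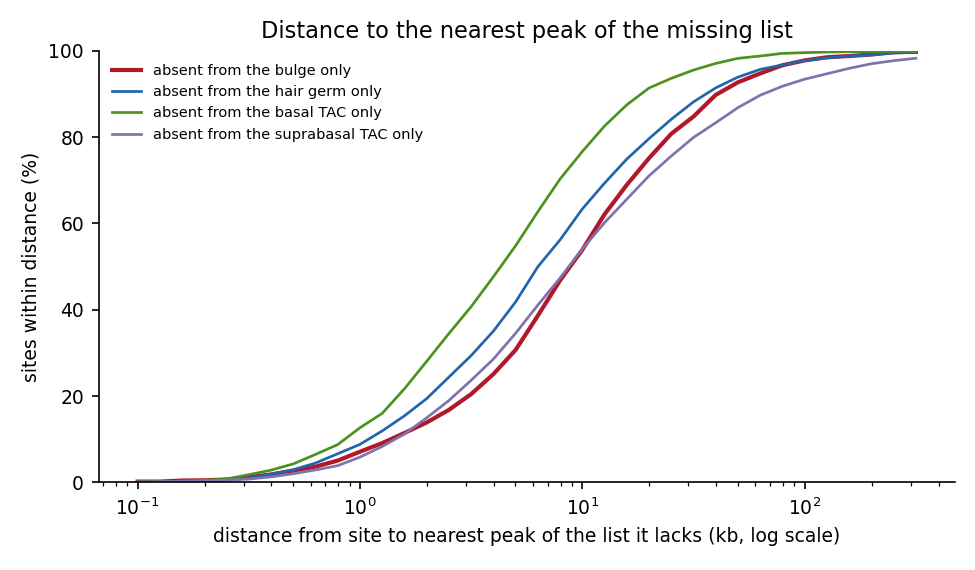
Share of sites (vertical axis, %) whose nearest peak of the list they lack lies within the distance on the horizontal axis (kb, log scale), for the 4 classes that lack 1 list. Of the sites absent from the bulge only, 7.11% have a bulge peak within 1 kb and 53.9% within 10 kb.

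By position, the sites were mostly away from gene ends. Of the 2053, 182 lay within 1 kb of either end of a protein-coding gene (8.87%, 7.71 to 10.2), against 37.1% of the common sites and 14.0% of all sites. The other classes that lack 1 list were similar or lower, with 9.52% of sites absent from the hair germ only, 9.60% of those absent from the basal TACs only and 4.88% of those absent from the suprabasal TACs only. Within 1 kb of a RefSeq start were 161 of 1991 sites (8.09%, 6.97 to 9.37), against 35.5% of the common sites, leaving out chromosome 18, which the promoter table did not cover. Inside a gene span were 1135 (55.3%), and 196 (9.55%) were over 100 kb from any gene. The gene table has no exons, so exonic and intronic sites were not separated. Among sites with strong peaks in all 3 lists, 17 of 305 (5.57%) were near a gene end.

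Promoters that these sites covered at least in part were intermediate in base composition. The sites overlapped 131 promoter windows of 118 genes. Some windows lay whole inside a site, and others shared few bases with it, such as 5 at Gm31954 and 9 at Dnmt3a. Base composition and motifs were read over the whole window, so bases outside the site are included. The median GC content of the 131 windows was 55.7%, against 62.0% for 13603 promoters in common sites and 53.0% for all 32619 in the table. The observed over expected CpG ratio was above 0.6 in 40.5% of them, against 74.2% in common sites and 36.02% of all. Runs of motif letters were searched on both strands, and some motifs can overlap. The TCF/LEF motif (CCTTTGA, allowing C or G as the first letter and A or T as the last) was in 17.6% of the 131 promoters, against 13.0% in common sites and 18.2% of all. The RUNX motif (AACCACA) was in 9.16% (95% Wilson interval 5.32 to 15.3), against 3.37% in common sites and 5.29% of all. The forkhead motif (TGTTTAC) was also in 9.16%, against 2.36% in common sites and 3.67% of all. The SP/KLF motif (CCGCCCC) was in 29.8% (22.6 to 38.1), against 44.8% in common sites and 23.3% of all.

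For the remaining motifs the intervals of the 131 promoters included the value of all promoters, with the SOX motif as the exception. The E-box (CACGTG) was in 9.92%, the shorter NFI motif (CTTGGCA) in 6.87% and the AP-1 motif (TGANTCA) in 5.34%. The homeobox motif (TAATTA) was in 6.11%. The motif of the zinc finger family of Gata3 (AGATAA) had the same share, as did the TEAD motif (ACATTCC, allowing G as the first letter). The SOX motif (ACAATGG) was in none, an interval of 0 to 2.85%, against 1.79% in common sites and 3.68% of all. The full palindromic NFI motif was in none of them and in 0.0368% of all promoters. A match says only that these letters are present in the promoter window, inside or outside the site, and several promoters of 1 gene share sequence.

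Each site went to the protein-coding gene whose span was nearest, up to 100 kb away, which placed 1857 of the 2053 sites, or 1.81% of the 102828 assigned sites. They went to 1568 of the 16937 genes with any site (9.26%), of which 1341 had 1, 181 had 2 and 46 had 3 or more. Genes with such a site were long, with a median span of 58.4 kb where genes with any site had 22.4 kb, and they held a median of 11 sites against 3. At 136 of them (8.67%) no site of the gene was in the bulge list, against 10.7% of all genes with a site.

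Matrix regulators, the transcription factors and signals of the TACs, had 17 of their 446 sites in the set (3.81%, exact 95% interval 2.24 to 6.03). These lay at 9 of 24 genes. Of all genes with a site 9.26% held one of the set, and those had a median of 11 sites against 3 for all. By genes, axon guidance reached 42.9%, though its share of sites was 2.24%. The hair shaft list had 11 of 174 sites (6.32%, 3.20 to 11.0) at 7 of 20 genes, and the inner root sheath list 5 of 197 (2.54%) at Cux1 and Krt27. The hair germ list had 10 of 389 (2.57%, 1.24 to 4.68), and the bulge stem cell list 5 of 549 (0.911%, 0.296 to 2.11), both read against 1.81% of all assigned sites. Lef1 and Cux1 stand in several lists. Without them 9 of 360 matrix sites (2.5%) and 2 of 303 hair germ sites (0.660%) remained, and without Lef1 7 of 146 hair shaft sites (4.79%). Peaks in every list, the bulge included, were then required to have a −log10 q-value of 10 or more. The hair shaft share was now 0.746% (1 of 134), the matrix share 2.24% (7 of 313) and the share of all sites 0.909%. Endothelial (2.30%, 2 of 87), outer root sheath (2.11%, 2 of 95) and cell cycle (2.07%, 4 of 193) shares were near the matrix share. The bulge stem cell share was 1%, and the dermal and melanocyte shares were 0.

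**Figure D4:**
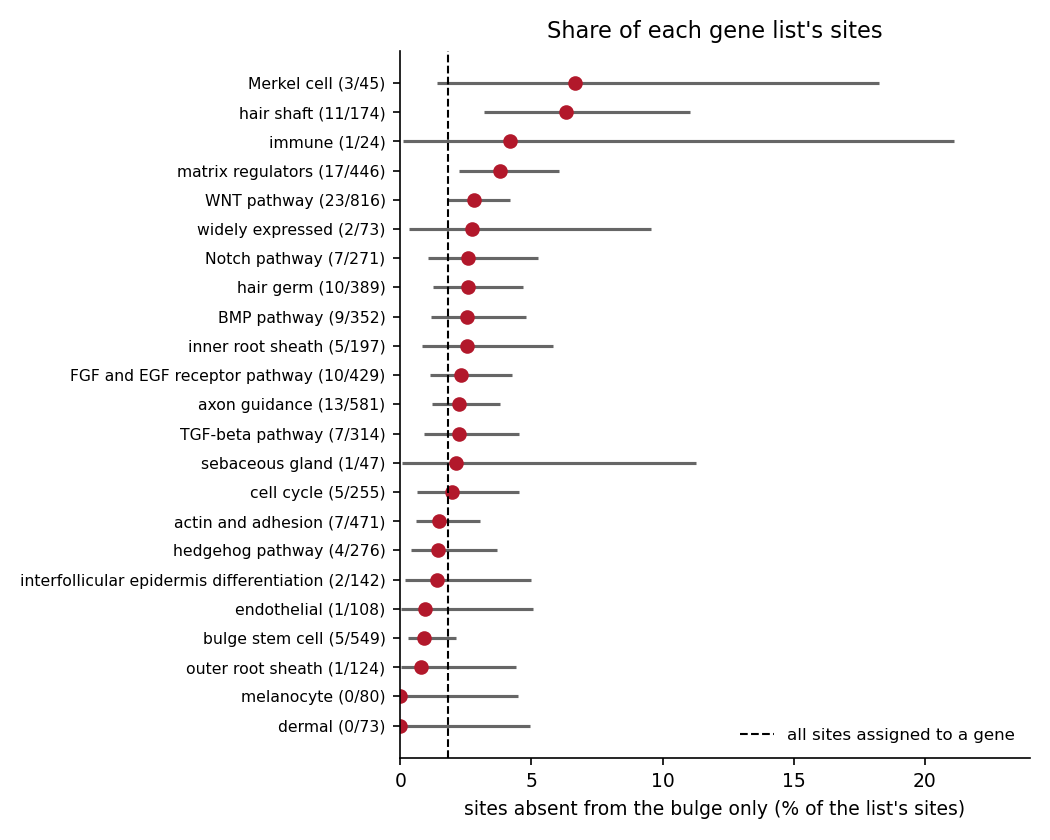
Share of each gene list's sites that were absent from the bulge only (horizontal axis, %), with exact 95% intervals for counting error and the number of such sites over all sites of the list. The dashed line is the share of all assigned sites, 1.81%. Hair shaft (6.32%) and matrix regulators (3.81%) lie above the line with their intervals, and several small lists have wide intervals. Both of these lists hold Lef1. Without it the hair shaft share was 4.79%, and without Lef1 and Cux1 the matrix share was 2.5%. The lists were chosen with earlier results of these data known, so the intervals are not a test.

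Fragment counts of single sites, here and below, are raw and not scaled for depth, so counts of different lists are not on 1 scale. Lef1, the transcription factor that pairs with β-catenin to switch on WNT targets in the matrix, had 4 sites of the set among 28. The bulge list held 5 of its sites, the hair germ list 10, the basal list 18 and the suprabasal list 27. The farthest upstream, 95.5 kb before the gene (chr3:131013981-131014840, mm10), was the strongest in the hair germ, with 29 fragments and 10.2-fold, and had 62 fragments and 6.58-fold in basal TACs and 178 fragments and 8.38-fold in suprabasal TACs. Its hair germ coverage scaled to the bulge library came to 63.1 fragments, above the bulge median. The site 69.4 kb before the gene had 9 fragments and 4.18-fold in the hair germ, 81 fragments and 9.73-fold in basal TACs and 128 fragments and 13.2-fold in suprabasal TACs. The site 24.8 kb before the gene had 14, 25 and 36 fragments in the hair germ, basal and suprabasal TACs. The fourth, inside the gene and 9.23 kb from its far end, had 13, 137 and 175 fragments in the same order. No bulge peak was nearer than 10.6 kb to any of the 4. Assigned within 20 kb instead of 100 kb, 1 of the 4 stayed with Lef1.

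**Figure D5:**
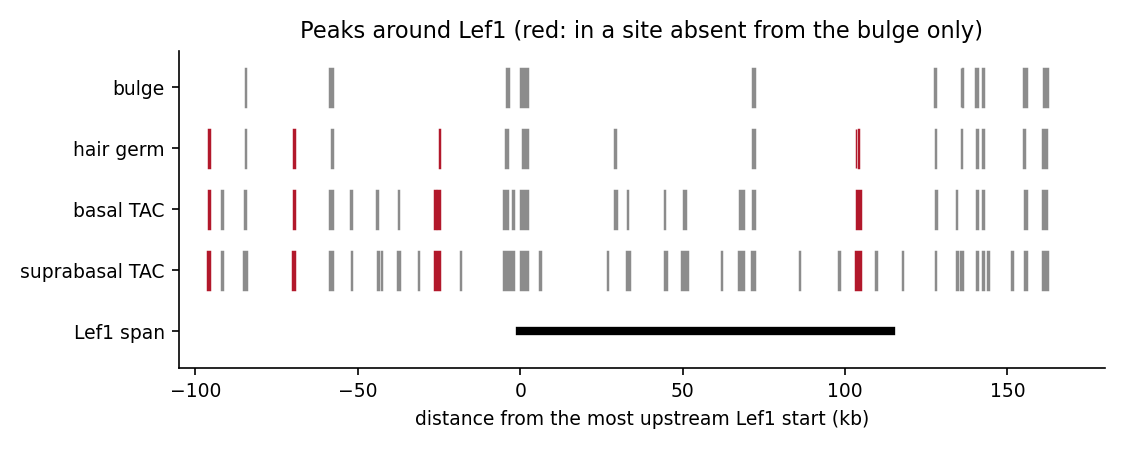
Peaks of the 4 lists around Lef1, by distance from its most upstream start (kb), with the gene span as a black bar. Red peaks belong to the 4 sites absent from the bulge only, 3 of them upstream and 1 inside the gene, and the bulge row is empty at each. Some peaks to the right of the gene belong to sites nearer to other genes.

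Cux1, a homeodomain factor of the inner root sheath and matrix, was the nearest gene to 4 sites, which lay between 16.9 and 51.7 kb outside it. The hair germ had 9, 14, 18 and 9 fragments at these sites along the chromosome, basal TACs 180, 151, 276 and 184, and suprabasal TACs 247, 41, 321 and 137. Every basal value was thus over 100 fragments while no hair germ value passed 18. Assigned within 20 kb, 1 of the 4 sites stayed with Cux1. Runx2, a runt family factor, held 2 sites with 12 and 21 hair germ fragments, and Prdm1, a repressor of differentiating epithelium, held 2 with 15 and 10, of which 1 was within 20 kb.

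Hoxc13, which directs hair keratin genes, had 1 site 7.56 kb from the gene, with 10 hair germ, 46 basal and 59 suprabasal TAC fragments. Msx1, a homeobox gene of the matrix, had 1 site with 13, 136 and 122 fragments in the same lists. Dlx3, another homeobox gene needed for hair shaft formation, had 1 site with 36, 181 and 117 fragments, and its −log10 q-value was 18.9 in the hair germ. Dlx2 had a site with 6, 62 and 24, and Bmp4, a BMP ligand of the matrix and papilla, a site with 11, 58 and 131. Dlx3 was the best covered of these single sites in the hair germ, and Dlx2 was at the lowest coverage of any hair germ peak in the set.

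Structural genes of hair and sheath were represented by few sites. Krt27, a keratin of the inner root sheath, had a site with 13 hair germ fragments, 143 basal and 352 suprabasal TAC fragments, and none of its 3 sites was in the bulge list. Krt33b, a hair shaft keratin, had a single site, with 13, 123 and 74 fragments in the same lists. Its neighbour Krt33a had 1 with 12, 28 and 90, 0.766 kb from a bulge peak. Selenbp1, a selenium-binding protein, had 2 sites with 8 and 9 hair germ fragments. Dsg4, the hair cortex desmoglein, and Vdr, the vitamin D receptor, which follicles need to cycle, had 1 each. The Dsg4 site was 69 bp from a bulge peak, and the Vdr site had 6 hair germ fragments. The site that reached the Krtap3-3 promoter, in contrast, had 23 fragments and 10.0-fold in the hair germ and 27 fragments and 5.38-fold in basal TACs. Neither of these 2 peaks covered the promoter. Its suprabasal peak, which did, had 227 fragments and 10.1-fold.

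WNT pathway genes had 23 of 816 sites in the set (2.82%, exact 95% interval 1.79 to 4.20, which includes 1.81%), and 19 of 788 (2.41%) without Lef1. The 23 sites lay at 15 of 56 genes, while 9.26% of all genes with a site held one of the set. With the stricter q-value in every list the WNT share was 1.48% and that of all sites 0.909%. Among ligands, Wnt3 had 2 sites of its 9, of which the bulge list held 2, the hair germ list 4, the basal list 6 and the suprabasal list 9. The site at the promoter printed above (chr11:103772646-103774402, mm10) had 9 hair germ, 27 basal and 66 suprabasal TAC fragments. A second, 4.95 kb inside the gene, had 15, 73 and 69. Wnt5a, a ligand of β-catenin-independent signalling, had 1 site with 18, 37 and 70 fragments, 0.378 kb from a bulge peak.

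Of the receptors, Lrp5, a WNT co-receptor, had 3 of its 14 sites in the set, and its paralogue Lrp6 had 1 of 25. The Lrp5 sites had 9, 9 and 13 fragments in the hair germ, 21, 118 and 61 in basal and 134, 37 and 170 in suprabasal TACs. Fzd2, a Frizzled receptor, had 2 of 10, with 13 and 10 hair germ fragments. Znrf3 and Rnf43, ubiquitin ligases that remove Frizzled receptors, had 1 site each, with 10 and 12 hair germ fragments. Coverage was low in the hair germ at all these receptor sites apart from Lrp6, which had 30 fragments.

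Inside the cell, Ctnnb1, which encodes β-catenin, had 1 site with 17, 44 and 62 fragments in the hair germ, basal and suprabasal TACs. Axin2, a WNT target and inhibitor, had 1 with 13, 20 and 87. Ctnnbip1, which blocks β-catenin from TCF factors, had the best covered WNT site of the hair germ, with 45 fragments and 7.69-fold there, 59 fragments and 11.5-fold in basal TACs and 90 fragments and 6.79-fold in suprabasal TACs. Nkd1, an antagonist of Dishevelled, had 1 with 23, 46 and 89. The corepressors Tle3 and Tle4 had 1 and 2 sites, with between 8 and 14 hair germ fragments, of which 1 at Tle4 was within 20 kb, and Wif1, a secreted WNT inhibitor, had 1 with 15. Of the 15 WNT genes only Lef1, Ctnnbip1 and Nkd1 had a site whose −log10 q-value was 10 or more in all 3 lists.

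Other pathways lay nearer the share of all assigned sites. The BMP list had 9 of 352 (2.56%), TGF-beta 7 of 314 (2.23%), Notch 7 of 271 (2.58%), FGF and EGF receptor 10 of 429 (2.33%) and hedgehog 4 of 276 (1.45%), and each interval included 1.81%. Heyl, a Notch target repressor, had no bulge site among its 4, and its site had 14 hair germ, 83 basal and 213 suprabasal TAC fragments. Gli2, the main activator of hedgehog targets, had 2 sites with 19 and 27 hair germ fragments, each within 1 kb of a bulge peak. Disp1, which releases hedgehog ligands, had 1 with 24, 54 and 41 fragments, and Gli3 1 with 12. Depth-scaled coverage at the Disp1 site was 2.17, 1.75 and 0.857 in the hair germ, basal and suprabasal TACs. Bmp7 and Fgf2, both ligands, had 2 sites each, and so did Spry2, a feedback inhibitor of receptor tyrosine kinases, and Smad3, a TGF-beta effector. Within 20 kb of the gene were 1 site of Bmp7, 1 of Smad3 and none of Spry2, whose sites were 31.2 and 49.5 kb away. Bmpr2, a BMP receptor, had 1 with 24, 156 and 45 fragments.

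Lists of cell machinery gave 5 of 255 sites for the cell cycle (1.96%, exact 95% interval 0.640 to 4.52), 7 of 471 for actin and adhesion (1.49%, 0.5996 to 3.04) and 13 of 581 for axon guidance (2.24%, 1.197 to 3.796), near the 1.81% of all assigned sites. The cell cycle sites lay at Ccnd2, Cdk1, Cdk6, Cdkn2b and E2f3, 1 each. Ccnd2, a D-type cyclin, had 21 hair germ, 124 basal and 198 suprabasal TAC fragments. Efna5, an ephrin ligand, held 3, and Robo1 and Robo2, the receptors of Slit, 1 each with −log10 q-values of 13.7 and 10.4 in the hair germ.

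Marker lists of other skin cells, which a sort can carry along, were read against the same 1.81% of all assigned sites. None of 73 dermal and none of 80 melanocyte sites was in the set, with exact 95% intervals reaching 4.93% and 4.51%. A floor of 3 counts gives upper limits of 4.11% and 3.75%. There was 1 of 24 immune sites (Ptprc), 1 of 108 endothelial sites (Pecam1, 0.926%), 1 of 47 sebaceous gland sites (Fasn), 2 of 142 sites of interfollicular differentiation (1.41%), 1 of 124 outer root sheath sites (0.806%), 2 of 73 sites of widely expressed genes and 3 of 45 Merkel cell sites (6.67%, 1.40 to 18.3). Each of these intervals included 1.81%. The Merkel sites were 2 at Krt18 and 1 at Piezo2, with 11, 9 and 12 hair germ fragments. The part of such cells in these counts was not tested.

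Markers of the sorted populations followed their labels in the number of sites in part. Cd34, on which bulge and hair germ were separated, counted 9 bulge sites, 7 hair germ sites and 6 in either TAC list, and Nfatc1, a bulge regulator of quiescence, 29, 20, 16 and 15 from bulge to suprabasal TACs. Cdh3, the P-cadherin on which basal TACs were sorted, did not: it had 12 sites in the bulge list, 10 in the hair germ list, 10 in the basal list and 13 in the suprabasal list. Sox9 and Tcf7l1, bulge transcription factors, had 11 and 18 bulge sites, with 13 hair germ sites for Sox9 and 24 basal TAC sites for Tcf7l1. From bulge to suprabasal TACs, the hair germ marker Shh had 4, 2, 6 and 9 sites, and Lef1 5, 10, 18 and 27. The bulge markers Lhx2 and Krt15 had 13, 13, 11 and 15, and 3, 3, 2 and 2. Among matrix markers, Msx1 had 4, 6, 12 and 14, Msx2 11, 13, 14 and 17, Foxn1 3, 3, 5 and 7, and Hoxc13 5, 6, 14 and 19. The lists held 62320, 56536, 75637 and 72137 peaks in that order. Neither Cd34 nor Nfatc1 had a site in the set, nor did Sox9, Krt15, Tcf7l1, Shh, Cdh3, Msx2 or Foxn1. Lhx2, a bulge transcription factor also present in the hair germ, had 1 of 20, with 23 hair germ, 39 basal and 60 suprabasal TAC fragments. Foxp1, a brake on stem cell division, had 3 of 92, with between 8 and 10 hair germ fragments.

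The genes with the most sites were mostly long. Auts2, a chromatin regulator gene, had 8 of its 90 sites in the set, Gse1 5 of 64, and Lamb1 (laminin β1), Ccdc162, Adk (adenosine kinase), Lef1, Vav3, Cux1, Pde4d (a cAMP phosphodiesterase), Lrmda and Lpp 4 each. The median span of the 15 leading genes, with ties settled by the share of a gene's sites, was 319 kb. The Auts2 sites spread along the gene, with between 6 and 32 hair germ fragments, and 1 was within 1 kb of a bulge peak. Of the 35 genes with 3 sites, those with the largest share of their sites in the set were Apob (of 6), Chka, choline kinase (of 6), Anapc13, a subunit of the anaphase-promoting complex (of 9), and Gnal, a G protein subunit (of 8). No site of Gnal was in the bulge list, and its nearest bulge peaks were 70.5 kb or more from the 3 sites. At Chka all 6 sites were in the hair germ list and 1 in the bulge list.

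None of the 10 sites with the highest values in all 3 lists was nearest to a gene of the lists used above. Ranked by the lowest of its 3 fold enrichments, the first site lay 8.89 kb from Gspt1, a translation termination factor gene (chr16:11263211-11263791, mm10), with 31 fragments and 13.4-fold in the hair germ, 130 and 16.1-fold in basal TACs and 226 and 12.5-fold in suprabasal TACs. Next came sites near Rassf10 (11.1-fold in the hair germ, 13.2-fold in basal and 12.1-fold in suprabasal TACs), Sh3rf3 (10.9, 13.2 and 10.8-fold) and Col19a1, a collagen gene, inside which the site had 12.8-fold in the hair germ and basal TACs and 10.4-fold in suprabasal TACs. Nrg1, a ligand of ErbB receptors, had a site 52.6 kb away with 41, 154 and 69 fragments. Others of the first 10 were nearest to Usp46, Susd1 and Sdr9c7, and 2 were over 100 kb from any gene.

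By hair germ fold alone, the leading site was inside Map4k5, a kinase gene, with 37 fragments and 15.5-fold there, 64 fragments and 9.20-fold in basal TACs and 68 fragments and 8.89-fold in suprabasal TACs. Sites beside Lbhd2 (13.4-fold) and inside Slco3a1 (13.2-fold), Arsg (13.1-fold) and Specc1l (12.5-fold) were among the first 10, with 31, 49, 40 and 40 hair germ fragments. At Slco3a1 the hair germ and suprabasal peaks shared no base and were joined by the basal peak. The suprabasal peak there was 3.95-fold. Scaled to the bulge library, each of these 5 sites, Map4k5 included, would have between 67.5 and 107 fragments, above the bulge median of 55. The nearest bulge peak was between 8.11 and 26.3 kb away. Of the 305 sites strong in all 3 lists, 89 had scaled coverage at or above that median. Both groups were picked by the strength of their hair germ peaks, so high scaled coverage follows in part from that choice. Of the same 305 sites, 16 lay at list genes, among them sites of Lef1, Cux1, Dlx3, Runx2, Ccnd2, Cdk6 and Bmpr2.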

How the data were processed

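ATAC-seq peak lists of 4 populations were used, 1 list per population, each pooling 2 samples. The authors' caller was MACS 2.1.1.20160309, run with no control and a q-value cutoff of 0.05, per the file headers. Bowtie2 2.2.9, Picard and build mm10 are named per the submitters' processing notes. The sources used here state no transposase shift, so peak edges carry that limit. The deposited columns are length, coverage signal at the summit in fragments (not scaled for depth), −log10 p-value and −log10 q-value (headers damaged, told apart by position) and fold enrichment over the local background ratio, all as the authors' caller gave them.

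Mitochondrial and Y chromosome peaks were dropped, the rest merged, and sites assigned to 21627 RefSeq genes (GRCm38.p6). Merging and assignment were tested on simulated data. Intervals (Wilson, or exact for gene lists) are 95% and cover counting error only. With 1 pooled list per population no test was made. The sites and the 23 gene lists were chosen with earlier results of these data known. Named were the 15 genes with most sites, list genes with at least 2 sites (at least 1 for WNT, matrix, hair germ and hedgehog), and 10 leading sites each by lowest fold and by hair germ fold. Other list genes, and the Bmp8b, Fgfbp1 and Krtap3-3 promoters, were named after their values were seen. Trdc, 1 list gene, was not analysed here. Python 3.11.15, pandas 2.3.3 and scipy 1.17.1 were used.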

Additional observations from a re-analysis of the deposited data

How the results depend on the processing

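The count of 2053 sites stayed within 1.5 times when peaks within 500 bp were merged (2031), when equal numbers of peaks were taken from each list (1902), when absence was scaled for depth (1809), when 50% overlap was required (2122) and when summits replaced overlap (2102). Of these sets 1364 of the 1902 and 1561 of the 1809 overlapped a site of the original set. With every list limited to −log10 q-values of 10 or more, 778 sites met the rule, but 473 of them overlapped a weaker bulge peak and 305 belonged to the original set. Demanding it outside the bulge list left 305. Sites absent from the basal TACs only fell to 1142 at that q-value, and those absent from the hair germ only to 1228 with equal numbers of peaks. At that q-value the rule held for 0.909% of all sites, and the shares at gene lists were 0.8% for the inner root sheath, 0.746% for the hair shaft, 1.48% for WNT, 0.823% for TGF-beta, 0.971% for Notch, 0.671% for FGF and EGF receptor, 0.29% for actin and adhesion, 0.706% for axon guidance and 0 for sebaceous gland, immune and Merkel cell genes. With genes assigned within 20 kb the immune share was also 0, and the counts of 10 named genes moved by over 1.5 times while 43 did not: Spry2 and Tle3 had 0 left, and Apob, Bmp7, Cux1, Lef1, Prdm1, Smad3, Tle4 and Ywhaz 1 each. Without Lef1 and Cux1, a setting chosen after seeing the data, the hair germ share was 0.660%. Within 5 kb rather than 1 kb of a gene end were 19.5% of the sites, and of a RefSeq start 18.1%. At the median of the bulge list in place of its 5th percentile, 189 sites reached the bulge calling level. The causes were not tested. No paired analysis was possible because each list pools both samples, and for the same reason no replicate could be left out. The shallow hair germ library limits what could be listed there.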

Other observations

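The hairpins of 3 microRNAs in the RefSeq table, Mir5110, Mir802 and Mir5617, lay inside sites absent from the bulge only. The sites were scattered: of 2033 pairs of neighbours on a chromosome, 54 were within 10 kb and 229 within 50 kb of each other, and the median gap was 478 kb.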
